A study of Homo sapiens with 2 samples.

Results

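The TP73 peaks around 5 genes of the tumour necrosis factor (TNF) receptor superfamily on chromosome 1, in band 1p36, are described here. The genes are TNFRSF18, TNFRSF4, TNFRSF9, TNFRSF8 and TNFRSF1B. The data come from chromatin immunoprecipitation sequencing (ChIP-seq) of TL-Om1, an established human line of adult T-cell leukaemia, a T-cell cancer associated with the retrovirus HTLV-1. One library was made by precipitation with an antibody against TP73, and 1 input library of whole cell extract from the same untreated, formaldehyde-fixed cells was sequenced as background. No value has a replicate error, because each group holds 1 library. A peak belonged to a gene where its summit, the base of highest enrichment, lay in or within 20 kb of the gene's hg19 span, which was known to 1 kb. Where spans competed, the nearest took the peak. This gave 16 peaks of 18908 in the list. The genes were chosen partly by measured enrichment, since one of the top-ranked peaks of the list lies between TNFRSF8 and TNFRSF1B. Counts and strengths below are therefore descriptions and carry no test.

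TNF receptors are membrane proteins that bind trimeric ligands of the TNF family and signal through TRAF adaptors to NF-kB and MAP kinases. All of these 5 act on T cells, where most are induced by activation or are abundant on regulatory T cells. TP73 belongs to the p53 family of transcription factors, which bind DNA as tetramers at paired half-sites. The peak list holds no expression values, so neither the T-cell identity of the line nor the levels of the receptors could be checked.

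TNFRSF8 carried most of the peaks, and its span was the longest, at 82 kb against 4 to 43 kb for the others. This gene encodes CD30, a receptor of activated lymphocytes and a surface marker of several lymphomas. To it were assigned 10 of the 16 peaks. TNFRSF4, which encodes the costimulatory receptor OX40, had 3 peaks. TNFRSF1B, which encodes the second TNF receptor, had 2 peaks, out of 3 summits within 20 kb, the other being closer to TNFRSF8. TNFRSF9, which encodes the costimulatory receptor CD137, had 1. TNFRSF18, which encodes GITR, a receptor abundant on regulatory T cells, had 0. The span of TNFRSF18 did have 2 summits within 20 kb, the nearest 10.2 kb away, but both lay closer to TNFRSF4. Only 3 of the 16 summits fell inside a gene span, 2 in TNFRSF8 and 1 in TNFRSF1B.

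**Figure D1:**
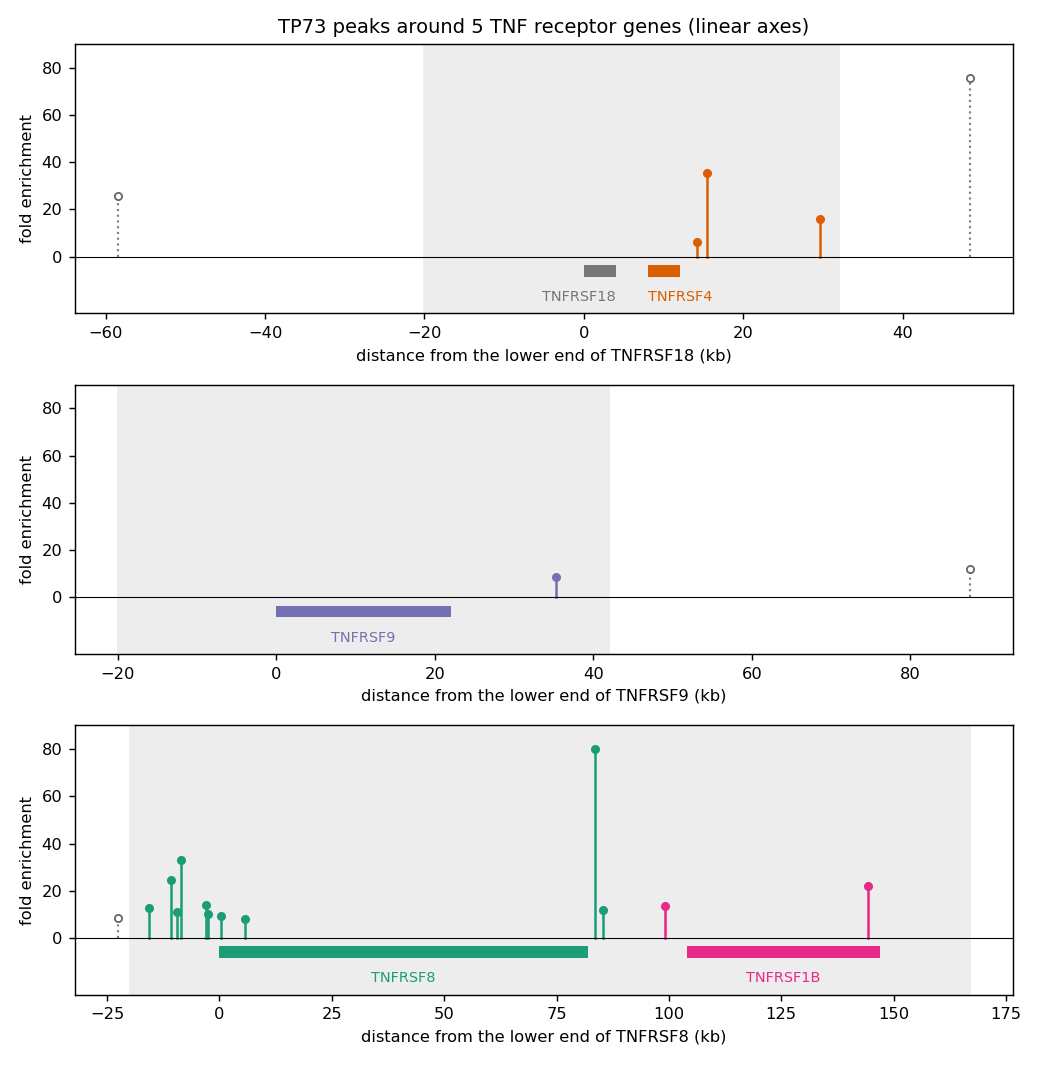
Fold enrichment over the control (vertical axis) of each peak against distance in kb from the lower-coordinate end of the first gene in each panel. Filled points are the 16 peaks, coloured by gene; bars below are the gene spans, grey shading marks the spans plus 20 kb, and open points with dotted lines are the nearest peaks outside. A group of 8 TNFRSF8 peaks stands at the left end of the gene, and the tallest line, 79.9-fold, stands just past its other end.

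Sequence at the hg19 coordinates of the peaks was not used here. The RefSeq promoter table (GRCh38.p14) matched 4 of the 5 genes by symbol and gives the first transcribed base and strand of each. TNFRSF8 and TNFRSF9 are shown because their promoters share an AP-1 motif. Of the 4 genes, only TNFRSF8 has a summit within 1 kb of the start of its hg19 span. Whether that peak overlaps the bases shown was not examined, since no coordinates were converted between builds. Each sequence runs from 250 bases before the start to 30 bases into the transcript, 5′ to 3′ on the gene's strand. Capitals mark matches to the AP-1 motif (TGANTCA) and, in TNFRSF9, to the NF-kB consensus. The TNFRSF8 sequence lies on the plus strand at chr1:12063053-12063332 and the TNFRSF9 sequence on the minus strand at chr1:7940810-7941089, both in GRCh38.p14.
TNFRSF8 promoter: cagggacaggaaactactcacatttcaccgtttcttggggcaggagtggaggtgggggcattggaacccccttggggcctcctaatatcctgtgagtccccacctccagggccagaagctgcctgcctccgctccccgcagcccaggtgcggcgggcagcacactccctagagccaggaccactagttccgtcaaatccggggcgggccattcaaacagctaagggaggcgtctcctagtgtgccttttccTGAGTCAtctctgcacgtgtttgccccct
TNFRSF9 promoter: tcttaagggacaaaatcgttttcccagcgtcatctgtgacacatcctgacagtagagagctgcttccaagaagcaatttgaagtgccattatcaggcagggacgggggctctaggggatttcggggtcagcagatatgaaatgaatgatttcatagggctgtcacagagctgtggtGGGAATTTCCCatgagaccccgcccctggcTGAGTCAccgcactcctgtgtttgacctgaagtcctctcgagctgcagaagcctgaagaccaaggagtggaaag

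Both promoters hold TGAGTCA, at base 2 of the transcript in TNFRSF8 and from 44 bases before the start in TNFRSF9. Either strand was searched, and 7.35% of the 35116 promoters in the table hold an AP-1 match in the same 280 bases. The NF-kB consensus matched TNFRSF9 at a pair of overlapping, shifted positions, from 74 and 73 bases before the start, and none of the other 3; 10.6% of all promoters hold it. The p53-family half-site consensus had 0 exact matches in the 4 promoters, against 6.15% of all promoters with a match. With 1 mismatch allowed, TNFRSF18 held GGGCGTGTCC and TNFRSF1B held AGGCGTGTCC, while 61.1% of all promoters hold such a match. ETS (CCGGAA) and CRE (TGACGTCA) matched none of the 4, against 16.6% and 1.85% of all promoters. A match is a run of letters and not a known binding site, and the 280 bases say nothing of sequence under the peaks elsewhere.

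Each peak has the authors' fold enrichment, the ratio of ChIP pileup to control background at the summit, and a −log10 q-value. The number of ChIP reads covering each summit was recovered from the fold and the p-value. A background of 2.41 control reads is the caller's lowest value, taken from the whole genome, and not a count at the summit. Intervals on reads are exact 95% Poisson intervals that cover counting error only.

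The strongest peak stood just past the downstream end of TNFRSF8, at chr1:12206331-12206944 on hg19. Its summit was 1.58 kb beyond the gene span and 83.6 kb from the gene's start. It was covered by 278 ChIP reads (95% interval 246 to 313) over a control background of 2.41 reads, a fold of 79.9. Its −log10 q-value of 435.5 ranked 5 in the list, shared with other peaks so that 3 in all had that value, and 4 peaks had a higher one. On chromosome 1 it ranked 2 among 2062 peaks. By reads, 13 peaks of the list had more, up to a maximum of 284. The upper end of this peak's interval lies above that maximum. Whether a cap on reads per position, with fragments of 142 bp, limited the strongest counts, folds and ranks was not tested. A second peak lay 1.80 kb further on, at chr1:12208058-12208582, with 41 ChIP reads (29.4 to 55.6) over the same control background and a fold of 12.0. The weaker peak was 525 bp wide against 614 bp for the stronger. The stronger is the top-ranked peak by which the genes were partly chosen, so the difference in reads is a description.

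The other 8 peaks of TNFRSF8 stood together at its upstream end. Their summits spanned 21.3 kb, with 6 before the gene span and 2 in it. Going towards the gene, the first lay 15.7 kb before the start, with 43 ChIP reads over 2.41 control reads and a fold of 12.6. A trio followed at 10.8, 9.44 and 8.52 kb before the start. Their ChIP reads were 85, 38 and 114, each over 2.41 control reads, and their folds 24.6, 11.2 and 32.9. The weakest of the trio thus stood between the pair of strongest peaks of the upstream group. A pair of summits only 0.324 kb apart came next, at 2.89 and 2.57 kb before the start, with 48 and 34 ChIP reads and folds of 14.0 and 10.0 over the same background. No peak of the upstream group came near the downstream one: the 278 reads past the gene were 2.44 times its highest value, 114 reads (94.0 to 137). If counts near the list's maximum of 284 reads were capped, this ratio would be a lower limit, which was not tested.

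The summit at the start of TNFRSF8 was among the weaker ones. The peak, at chr1:12123126-12123358, had 37 ChIP reads (26.1 to 51.0) over 3 control reads and a fold of 9.27, and 34.6% of the list had a lower fold. Its summit lay 0.23 kb above the lower end of the span, which is within the 1 kb to which the span was known, so it cannot be placed on one side of the first transcribed base. The last of the group, 5.67 kb into the gene, had 27 ChIP reads over 2.41 control reads and a fold of 8.02, and at 144 bp it was the narrowest of the 16 peaks. Beyond it the gene was empty: no summit was called over 77.9 kb, of which 76.3 kb lay in the TNFRSF8 span. Gaps of that length were common, as 39.8% of the 18883 distances between neighbouring summits were as long.

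TNFRSF1B lies next to TNFRSF8, downstream of it, and is read in the same direction. One of its peaks, at chr1:12221918-12222204, stood 4.96 kb before the gene, with 55 ChIP reads (41.4 to 71.6) over 2.98 control reads and a fold of 13.7. The other, at chr1:12267168-12267483, lay 40.3 kb into the gene, towards its downstream end, with 76 ChIP reads (59.9 to 95.1) over 2.41 control reads and a fold of 22.1. No summit was found at the gene's start, and the next one above the gene was 224.5 kb away. The interval between the TNFRSF8 and TNFRSF1B spans held 3 peaks, with folds of 79.9, 12.0 and 13.7.

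The 3 peaks of TNFRSF4 all lay above its span, on the side where RefSeq places SDF4 as the next protein-coding gene, and 0 lay on the side of TNFRSF18. The nearest, at chr1:1152161-1152373, was 2.23 kb from the span. It was the weakest by fold of the 16 peaks, with 28 ChIP reads (18.6 to 40.5) over 3.41 control reads and a fold of 6.42; 5.13% of the list had a lower fold. The second, at chr1:1153161-1153619, stood 1.19 kb from the first and had 123 ChIP reads (102 to 147) over 2.41 control reads. Its fold of 35.5 was the second highest of the 16, and 91.1% of the list had a lower one. The third, at chr1:1167514-1167813, lay 17.7 kb from the span, near the edge of the window, with 54 ChIP reads (40.6 to 70.5) over 2.41 control reads and a fold of 15.8. Whether these summits lie in SDF4 or in another gene was not examined, since an hg19 annotation was not used here.

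TNFRSF9 had the fewest peaks of the 4 genes with a peak, and so the fewest ChIP reads summed over a gene's peaks. Its single peak, at chr1:8014137-8014391, lay 13.2 kb upstream of the gene, on the side where RefSeq places PARK7 as the next protein-coding gene. It had 44 ChIP reads (32.0 to 59.1) over 4 control reads and a fold of 8.78. The reads were close to the list's median of 43, while the fold was lower than that of most peaks, as 28.96% of the list was below it. The control background of 4 reads was the highest of the 16.

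**Figure D2:**
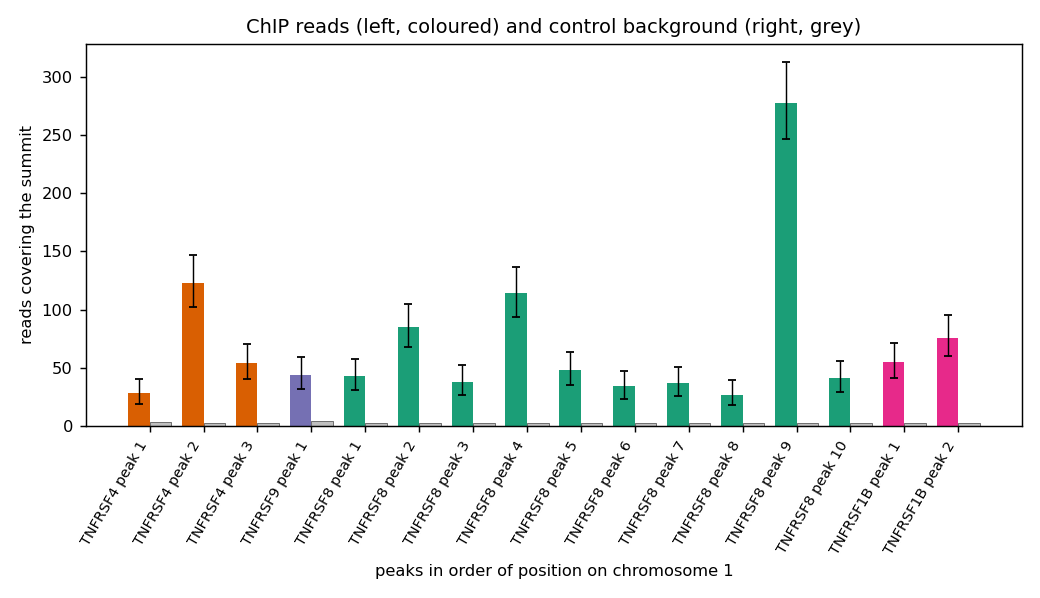
Reads covering the summit of each of the 16 peaks, in order of position. Coloured bars are ChIP reads with exact 95% Poisson intervals and grey bars beside them the control background per fragment. The 278 reads past TNFRSF8 exceed the 123 and 114 of the next highest peaks. The background is between 2.41 and 4 throughout, where 2.41 is a floor taken from the whole genome and not a count at the summit.

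As a set, the 16 peaks had a wide range of strength. Their folds ran from 6.42 to 79.9 with a median of 13.2, against a median of 11.3 over all peaks of the list. The median number of ChIP reads was 46 at the 16 peaks and 43 over all peaks. A fold of at least 10 was reached by 12 of the 16 (75%), against 59.8% of all peaks. A fold of at least 20 was reached by 5 (31.25%), against 23.0% of all peaks, and a fold of at least 50 by 1 (6.25%), against 3.54%. These shares lie near those of the list, and 1 peak more or less moves each by 6.25 percentage points. By position the strong peaks were spread: 3 of the 5 with a fold of at least 20 were assigned to TNFRSF8, 1 to TNFRSF4 and 1 to TNFRSF1B.

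The control background was low at these genes. At 12 of the 16 peaks (75%) the caller used its lowest background, 2.41 control reads in a fragment of 142 bp, against 51.9% of all peaks and 34.3% of those on chromosome 1. This value is a floor taken from the whole genome, so lower local counts of control reads would not show. At the other 4 peaks, 1 each at TNFRSF4, TNFRSF9, TNFRSF8 and TNFRSF1B, local control reads set the background, at 3.41, 4, 3 and 2.98 reads.

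The peaks of TNFRSF8 differed in width among themselves as well as in height, and 6 of the 10 were wider than the upper quartile of peaks with similar reads. The one farthest upstream, at chr1:12107184-12107884, was the widest of the 16 at 701 bp, with 43 ChIP reads at its summit. Among the 2761 peaks of the list with 40 to 49 reads, whose median width was 240 bp, 22 (0.797%) were at least as wide. The weaker of the peaks past the gene, 525 bp wide with 41 reads, was matched in width by 3.62% of the same peaks, and the one 2.89 kb before the start, 432 bp wide with 48 reads, by 7.75%. The 3 strongest TNFRSF8 peaks, 505, 529 and 614 bp wide, were matched by 10.9%, 15.6% and 22.8% of the peaks in their ranges of reads. The other 4 TNFRSF8 peaks were below that quartile: those of 189, 185 and 233 bp were matched by 63.8%, 67.5% and 33.6% of peaks with 30 to 39 reads, and that of 144 bp by 88.9% of peaks with 18 to 29 reads. The TNFRSF4 peaks, 213, 459 and 300 bp wide, were matched by 24.3%, 25.2% and 41.8% of peaks in their ranges of reads. At TNFRSF9, the peak with 44 reads was 255 bp wide, and 41.9% of peaks with 40 to 49 reads were at least as wide. Both TNFRSF1B peaks, at 287 and 316 bp, were also near the median for their reads, which was 282 bp for 50 to 74 reads and 319 bp for 75 to 99 reads. The comparison of widths was chosen after the values were seen.

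**Figure D3:**
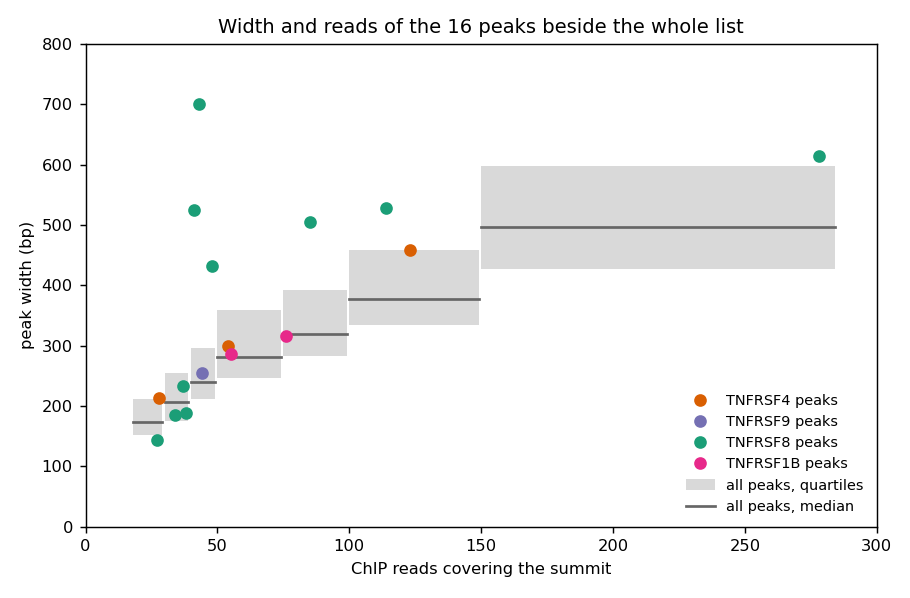
Width of each peak in bp against the ChIP reads covering its summit. Points are the 16 peaks, coloured by gene; grey boxes and lines are the quartiles and median width of all peaks in the same range of reads. TNFRSF8 peaks of 701, 525 and 432 bp with 43, 41 and 48 reads lie above the quartiles, as do the 3 strongest TNFRSF8 peaks, and the TNFRSF9 and TNFRSF1B peaks lie within them.

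The spacing of the peaks was uneven. In the 3 stretches that the windows form, the 16 peaks gave 53.2 peaks per Mb (exact 95% Poisson interval 30.4 to 86.3, which treats peaks as independent), against 13.9 per Mb in the first 28 Mb of chromosome 1, 8.28 on chromosome 1 as a whole and 6.65 over the autosomes. The genes were chosen with a strong peak known to lie among them, and windows around genes are compared here with all sequence, so the difference is a description. The 187 kb around TNFRSF8 and TNFRSF1B held 12 peaks. Of 16201 windows of that length tiled over the autosomes and chromosome X, 0.204% held at least 12, and the median window held 0. In the first 28 Mb of chromosome 1, 2 of 149 such windows did (1.34%). The 52 kb around TNFRSF18 and TNFRSF4 held 3 peaks, and 2.67% of windows of that length held at least 3, or 7.99% in the first 28 Mb. The 62 kb around TNFRSF9 held 1 peak, and 23.8% of windows of that length held at least 1, or 41.5% in the first 28 Mb. The count at TNFRSF9 was thus a common one, and the count of peaks around TNFRSF8 and TNFRSF1B was in the upper tail.

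**Figure D4:**
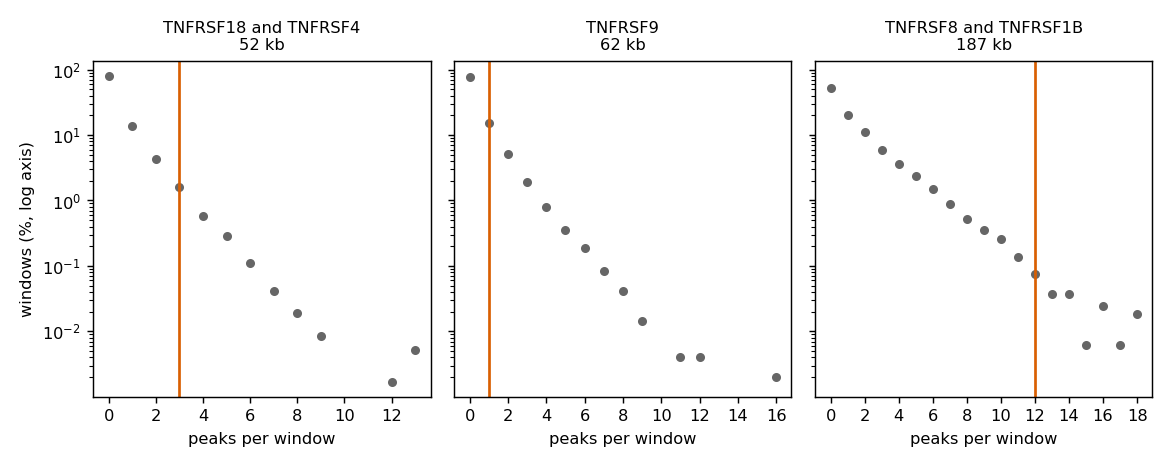
Percent of windows (vertical log axis) against the number of peaks in a window, for windows as long as each of the 3 stretches, tiled over the autosomes and chromosome X. The vertical line marks the number of peaks around the named genes: 3 in 52 kb, 1 in 62 kb and 12 in 187 kb, where 0.204% of windows hold at least as many.

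The density around TNFRSF8 came mainly from its upstream group. Of all 18739 runs of 8 consecutive summits in the list, which overlap one another, 22 (0.117%), this one among them, were as short as 21.3 kb, against a median of 674.0 kb. This run was picked after its values were seen. Of the 16 peaks, 4 had another summit within 1 kb (25%), all upstream of TNFRSF8, against 13.3% of all peaks. In the closest of these pairs 98 bp lay between the end of one peak and the start of the next.

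Peaks near the 20 kb limit show what the choice of window left out. Just inside were the TNFRSF4 peak at 17.7 kb and the TNFRSF8 peak at 15.7 kb. Just outside was a peak at chr1:12100183-12100460, 22.6 kb before TNFRSF8, with 42 ChIP reads and a fold of 8.39. A far stronger peak at chr1:1186118-1186684 lay 36.4 kb above TNFRSF4, with 263 ChIP reads and a fold of 75.6, which ranked 44 by −log10 q-value in the list. On the other side of TNFRSF18 the nearest peak was 58.5 kb away, with a fold of 25.8. Around TNFRSF9 the nearest peaks beyond the window were 65.5 kb above it, with a fold of 12.0, and 134.9 kb below it, with a fold of 10.6.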

How the data were processed

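TP73 ChIP and whole cell extract from TL-Om1 cells gave 1 library each, sequenced as single-end reads of 50 bases after 10 min of formaldehyde, per the labels' protocols. The submitters' processing notes name hg19, Bowtie2, SAMtools and MACS2 2.1.1.2016030. For settings and duplicate removal, the written sources used here give nothing. ChIP reads recovered at the summits stopped at 284, with a fragment of 142 bp. Whether this maximum reflects removal of duplicates was not tested. All 18908 deposited peak names contain the text IgG, although whole cell extract is the labelled control, so "control" means whichever library the caller was given. The authors deposited, for each peak, a fold (a ratio of ChIP pileup to background), a −log10 p-value, a −log10 q-value, the summit's distance from the start (another measure, in bp) and a score, which is 10 times the −log10 p-value, cut to a whole number, at 18903 peaks.

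Read totals are not part of the list. Fold and p-value were solved for pileup and background with the MACS2 formulas, (pileup + 1) / (background + 1) and a Poisson tail, considering backgrounds of at least 1 read. A ChIP read was worth 0.975 units of pileup, a step fitted on peaks at the lowest common background. All 8987 other peaks with a single solution gave whole reads within 0.02. All 16 peaks described had a single solution. The solving was tested on simulated peaks.

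Gene spans came to 1 kb with the gene list, and summits are counted from 1. Motifs were searched in RefSeq promoters (GRCh38.p14); no coordinates were converted between builds. Windows were tiled from position 1 to the last summit and include assembly gaps. The rule for named items was all 5 genes, all their peaks and the nearest peaks outside. Genes and lists were chosen with earlier results of these data known. Planned counts at other TNF receptors and ligands were not made, since an hg19 annotation was not used here. Calculations used scipy 1.17.1, pandas 2.3.3 and numpy 2.4.6, and figures matplotlib 3.10.9, in Python 3.11.15.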

Additional observations from a re-analysis of the deposited data

How the results depend on the processing

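Counts, shares and density were recomputed under other settings in 48 repeats, and 43 stayed within 1.5 times the reported count or inside its 95% interval. Some of the 43 could not have moved, namely those for TNFRSF18 and for the q-value limit described below. The tolerance was also wide for small counts: TNFRSF4 went from 3 peaks to 2 with a margin of 10 kb and to 4 with 50 kb, and both counted as unchanged. The 5 exceptions were these. With at least 50 ChIP reads required at the summit, 7 of the 16 peaks were left, with 3 at TNFRSF8 and 0 at TNFRSF9. The single TNFRSF9 peak was also lost with a margin of 10 kb (0 peaks), since it lies 13.2 kb from the span, and with a fold of at least 10 (0 peaks). Over all 5 genes the count was 12 with a margin of 10 kb, 19 with 50 kb, 12 with a fold of at least 10 and 15 with peaks closer than 500 bp merged. A limit of at least 10 on the −log10 q-value could remove none of the 16, as their lowest value was 13.1. Counting by any overlap also left 16. TNFRSF18 had 0 peaks under every setting run, but this outcome was fixed, since no setting changed the assignment to the nearest span. The 2 summits within 20 kb of TNFRSF18 lay closer to TNFRSF4. Its nearest summit on the other side, 58.5 kb away, was beyond every margin. Density was 39.5 peaks per Mb with a margin of 50 kb. No paired analysis was possible because there is 1 ChIP library and 1 control, and no library could be left out. The fewest ChIP reads at any of the 16 summits were 27; sites too weak to be called were not analysed.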
